A study of Mus musculus with 16 samples.

Results

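The small leucine-rich proteoglycans are secreted matrix proteins built around a row of leucine-rich repeats, and 10 of their genes were followed here: Dcn, Bgn, Aspn, Lum, Fmod, Prelp, Omd, Kera, Ogn and Epyc. They were chosen by name, as all probes whose current or former gene symbol is one of these 10. All 10 genes were on the array, with 15 of its 25697 probes: 3 for Ogn, 2 each for Dcn, Fmod and Epyc and 1 for each of the others. RNA came from mouse bone marrow stromal cells kept for 7 days in osteogenic culture, on 8 arrays of wild type cells and 8 of cells with an HDAC3 conditional knock-out, all of a mixed CD1/C57BL6 background. In the knock-out, Cre recombinase driven by the Osterix1 promoter deletes Hdac3, which encodes a histone deacetylase, in the osteoblast lineage, so other cells of a culture keep the gene. The labels name neither ages nor the number of animals, and say nothing of pooling.

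These proteoglycans bind collagen fibrils and set their diameter and spacing, and several also bind TGF-beta or BMP ligands in the matrix. Decorin (Dcn), biglycan (Bgn) and asporin (Aspn) form the first class. Lumican (Lum), fibromodulin (Fmod), Prelp, osteomodulin (Omd, also called osteoadherin) and keratocan (Kera) form the second, and osteoglycin (Ogn) and epiphycan (Epyc) belong to the third. Biglycan is abundant in bone matrix and osteomodulin is made mostly by mature osteoblasts, whereas keratocan is known from the cornea and epiphycan from cartilage.

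In the RefSeq gene table (GRCm38.p6), 9 of the 10 genes lie in clusters of neighbours. Dcn, Lum, Kera and Epyc follow each other with 0 protein-coding genes between them. The same holds for Aspn, Omd and Ogn, preceded by the related gene Ecm2, and for Prelp and Fmod, preceded by the related gene Optc. Bgn, on the X chromosome, is in no such cluster, with 322 protein-coding genes between it and the related gene Nyx. The promoter windows below, 250 bases before to 50 after the start of the gene as RefSeq gives it for GRCm38.p6, are shown because Ogn and Omd varied together across the arrays, Prelp and Fmod shared low values on 4 arrays, and Bgn varied least among the brighter genes. Capitals mark matches, searched on both strands, to the TATA box motif TATAAA, the CAAT box motif CCAAT, the E-box motif CANNTG and the AP-1 motif TGANTCA. The windows are those of Ogn (chr13:49607765-49608064, plus strand), Omd (chr13:49582212-49582511, plus strand), Prelp (chr1:133921352-133921651, minus strand), Fmod (chr1:134037004-134037303, plus strand) and Bgn (chrX:73483351-73483650, plus strand), each written 5′ to 3′ on its own strand.
Ogn: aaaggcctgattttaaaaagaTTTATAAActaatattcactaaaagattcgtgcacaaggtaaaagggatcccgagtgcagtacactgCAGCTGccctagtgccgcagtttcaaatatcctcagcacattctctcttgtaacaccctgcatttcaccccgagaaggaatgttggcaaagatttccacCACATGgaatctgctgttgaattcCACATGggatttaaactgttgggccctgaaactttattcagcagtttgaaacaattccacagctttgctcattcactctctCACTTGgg
Omd: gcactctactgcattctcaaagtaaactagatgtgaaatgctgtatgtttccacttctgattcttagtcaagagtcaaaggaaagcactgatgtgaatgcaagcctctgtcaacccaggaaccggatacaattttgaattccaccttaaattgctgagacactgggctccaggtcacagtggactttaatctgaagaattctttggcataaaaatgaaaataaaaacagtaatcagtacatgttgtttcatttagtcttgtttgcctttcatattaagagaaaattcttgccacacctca
Prelp: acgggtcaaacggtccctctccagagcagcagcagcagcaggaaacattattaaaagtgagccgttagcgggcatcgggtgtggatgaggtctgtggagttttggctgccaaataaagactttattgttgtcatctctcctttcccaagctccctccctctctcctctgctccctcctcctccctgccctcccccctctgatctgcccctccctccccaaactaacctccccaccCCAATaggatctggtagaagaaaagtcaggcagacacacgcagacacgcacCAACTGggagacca
Fmod: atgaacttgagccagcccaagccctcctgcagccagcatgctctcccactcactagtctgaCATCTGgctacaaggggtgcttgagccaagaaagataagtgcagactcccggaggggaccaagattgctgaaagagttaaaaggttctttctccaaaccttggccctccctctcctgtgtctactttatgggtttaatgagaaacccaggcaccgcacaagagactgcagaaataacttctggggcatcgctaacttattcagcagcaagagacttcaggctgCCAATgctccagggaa
Bgn: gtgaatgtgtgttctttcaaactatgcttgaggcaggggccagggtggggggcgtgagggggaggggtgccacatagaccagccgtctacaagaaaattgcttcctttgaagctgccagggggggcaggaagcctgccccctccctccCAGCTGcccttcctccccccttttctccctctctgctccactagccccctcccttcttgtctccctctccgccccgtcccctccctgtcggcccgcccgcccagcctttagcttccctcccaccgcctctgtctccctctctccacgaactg
The Ogn window held 4 CANNTG matches and 2 matches to TATAAA, which overlap each other on opposite strands at positions -229 and -227 from the start. Omd had 0 matches of any kind. Prelp and Fmod each held 1 CCAAT and 1 CANNTG match, and Bgn held 1 CANNTG match. None of the 5 windows had a TGANTCA match. Among all 32851 promoter windows of the table, TATAAA was found in 13.6%, CCAAT in 37.4%, CANNTG in 72.3% and TGANTCA in 7.81%. These matches describe letters and say nothing of which factor binds.

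The numbers in the array titles fall into 5 runs of neighbouring numbers, used below as run 1 (WT5 and KO7), run 2 (WT13, WT14, KO15 and KO16), run 3 (WT21, WT22, KO23 and KO24), run 4 (WT30 and KO32) and run 5 (WT42, WT44, KO46 and KO47). What a title number stands for is not stated. Values are log2 intensities of the deposited table, whose median was 6.60 and whose lowest value was 5.73 to 5.76 on every array. Hdac3 had a mean of 10.42 ± 0.085 in wild type and 10.25 ± 0.077 in knock-out arrays (SD, n = 8 each) and was lower in the knock-out in 5 of 5 runs, with a limma adjusted p of 0.932, or 0.162 with the runs as a block. The osteoblast genes Ibsp, Bglap, Alpl, Sp7 and Col1a1 were all above the median probe, while Dmp1, Phex and Ifitm5, which mark later stages, were below it. Since 8828 of all 16593 genes were above the median probe, this does not settle the cell type. All 10 measured macrophage markers were also above the median probe. WT13 and WT14, the wild type arrays of run 2, carried the Y-linked gene Eif2s3y at 5.89 and 6.17, and the other 14 arrays at 8.28 or more.

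The largest differences among these genes lay between runs, not between genotypes. Of the 10 genes, 6 differed between runs at their brightest probe (limma F test with genotype in the model, Benjamini-Hochberg adjusted p under 0.05): Dcn, Lum, Fmod, Prelp, Omd and Ogn. Of the 15 probes 10 passed, against 20.1% of all 25697 probes and 37.7% of the probes above the median probe. Bgn did not pass (adjusted p = 0.0891), nor did Aspn (0.637), Kera (0.681) and Epyc (0.304). The median range of run means was log2 1.38 over the 10 genes and 0.21 over all 16593 genes. These sets differ in brightness, with 7 of the 10 and 8828 of the 16593 above the median probe, and no range was taken over brighter genes alone. The same 6 genes passed without any single array and without any single run, and Bgn joined them without WT44 (adjusted p = 0.0486).

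**Figure D1:**
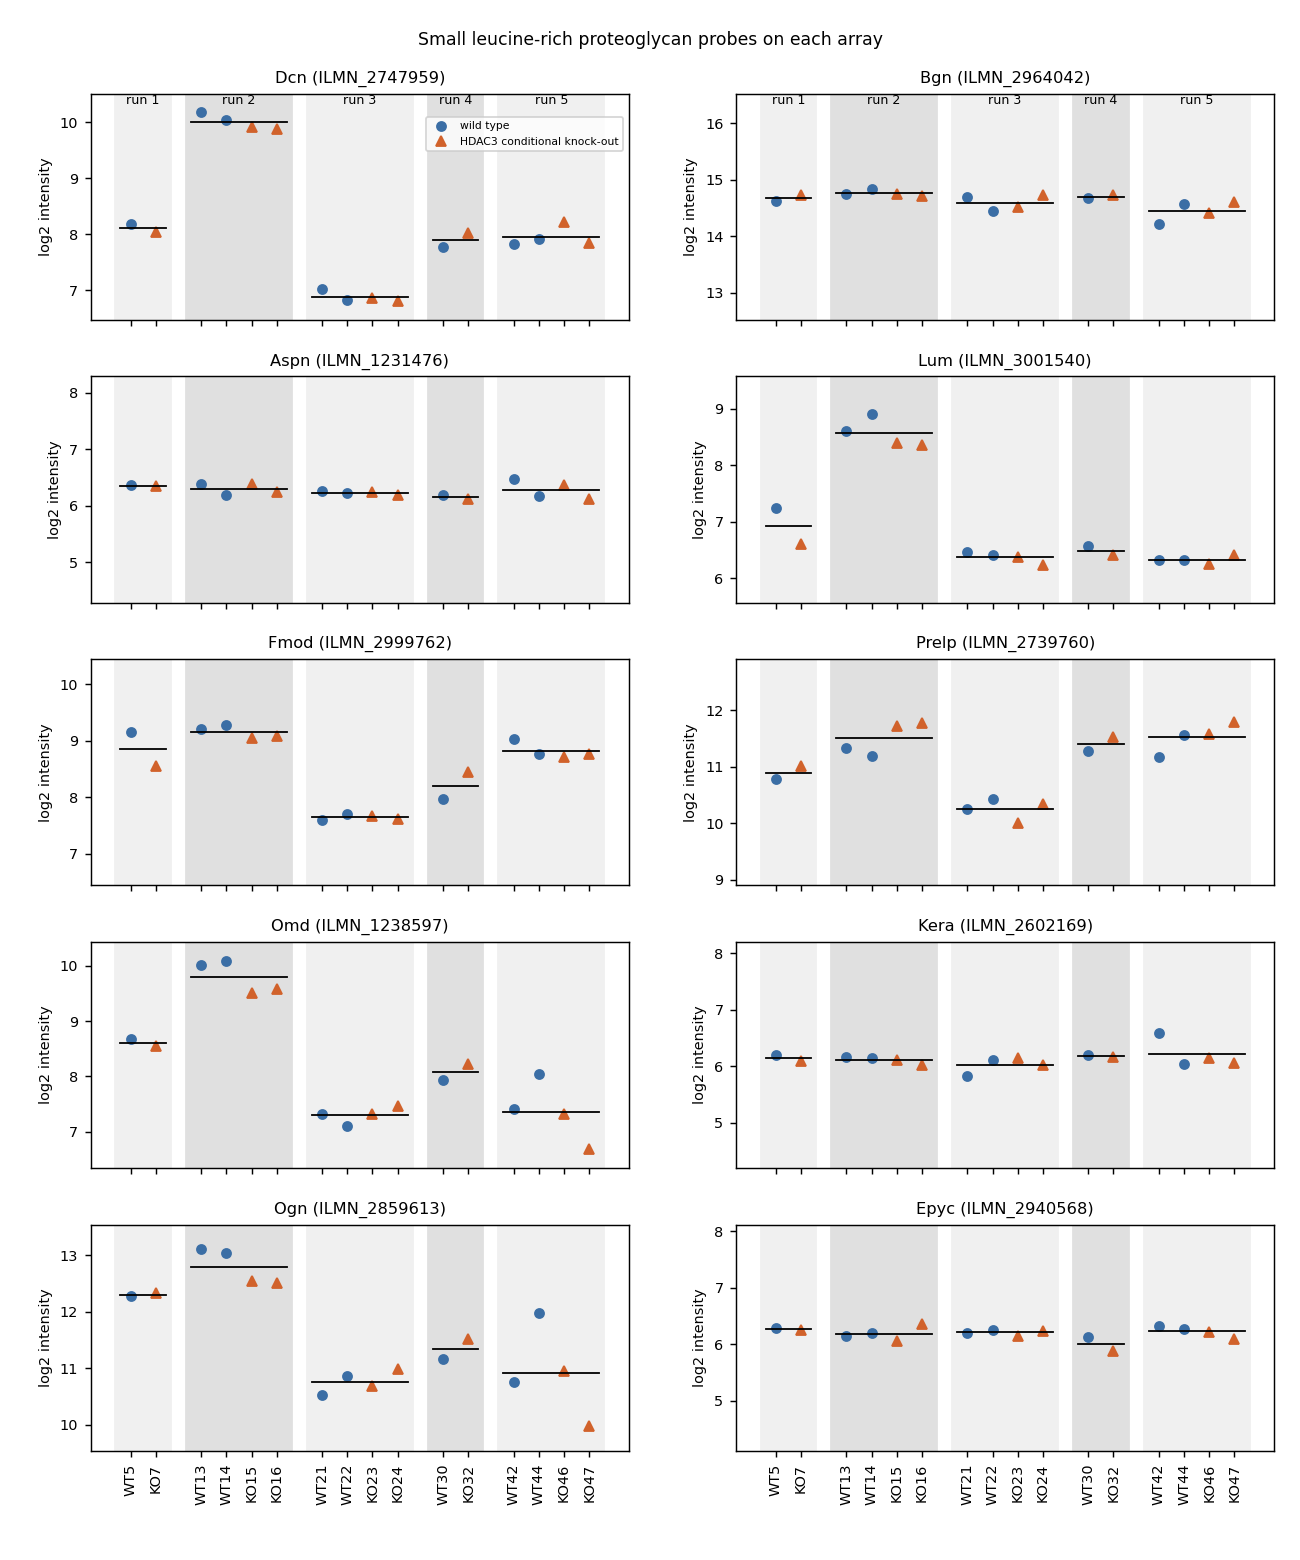
Log2 intensity (vertical axis) of the brightest probe of each of the 10 genes on the 16 arrays, in the order of their title numbers. Circles are wild type, triangles HDAC3 conditional knock-out, shaded bands the 5 runs and black lines the run means. Dcn, Lum, Omd and Ogn are highest in run 2, while Aspn, Kera and Epyc stay near the lower end of the scale on every array.

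Decorin, a collagen-binding proteoglycan that also binds TGF-beta, covered the widest range. Its brighter probe read 10.17 and 10.03 in WT13 and WT14 and 9.91 and 9.88 in KO15 and KO16. It read 8.18 and 8.04 in run 1, 7.78 and 8.02 in run 4 and 7.82, 7.91, 8.21 and 7.84 in run 5. In run 3 it read 7.03, 6.83, 6.86 and 6.81. All 4 arrays of run 2 were thus above, and all 4 of run 3 below, every other array. Run 1 lay above run 4, and run 5 overlapped both. Run 2 stood 8.68-fold over run 3 (log2 3.12, limma adjusted p = 9.13e-11). The dimmer Dcn probe had the same highest run, with 7.71 to 8.07 in run 2 and 6.34 to 6.95 elsewhere, but a range of run means of only 1.43 (adjusted p = 7.23e-07).

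Biglycan, the nearest relative of decorin, did not share this pattern. Its single probe lay between 14.21 and 14.83 on all arrays, with run means from 14.45 in run 5 to 14.76 in run 2. All 4 arrays of run 5 were below those of runs 1, 2 and 4, and run 5 overlapped run 3. In linear units it ran from 18953 to 29164, where the brightest probe of each array stood at 37892. Differences so near the top of the scale may be compressed, which was not tested. Asporin, the third member of the class, read 6.11 to 6.47 and was below the array medians everywhere.

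Lumican, a keratan sulfate proteoglycan that regulates fibril assembly, was well above the bottom of the scale in run 2 and near it on most other arrays. It read 8.61 and 8.91 in WT13 and WT14 and 8.39 and 8.36 in KO15 and KO16. WT5 of run 1 followed at 7.25, and the other 11 arrays lay between 6.24 and 6.60, close to the array medians or below them. The mean of run 2 (8.57) was 4.72-fold that of run 5 (6.33), with an adjusted p of 1.71e-09, and because the low arrays lie near the bottom of the scale this fold is compressed. Only 1 probe stands for Lum, so no second probe bears on it.

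Osteomodulin and osteoglycin, neighbours on the chromosome, had run means in the same order, though the order of arrays within a run often differed. Omd read 10.01, 10.09, 9.51 and 9.59 in run 2, 8.67 and 8.54 in run 1, 7.94 and 8.22 in run 4, 7.31, 7.11, 7.33 and 7.47 in run 3, and 7.41, 8.05, 7.32 and 6.69 in run 5. The brightest Ogn probe read 13.11, 13.03, 12.55 and 12.50 in run 2, 12.28 and 12.33 in run 1, 11.17 and 11.52 in run 4, 10.53, 10.87, 10.68 and 10.98 in run 3, and 10.75, 11.98, 10.95 and 9.97 in run 5. For both genes runs 2, 1 and 4 came in this order without overlap, and runs 3 and 5 overlapped. Through WT44, run 5 also overlapped run 4. The range of run means was 2.50 for Omd (5.64-fold, adjusted p = 6.55e-07) and 2.03 for Ogn (4.09-fold, adjusted p = 0.000164). In run 5 both genes were highest in WT44 and lowest in KO47. The other Ogn probes also had their highest run mean in run 2, with smaller ranges of 1.35 (adjusted p = 0.000504) and 0.70 (adjusted p = 0.000504).

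Fibromodulin, which modulates collagen crosslinking, and Prelp, which anchors basement membranes to connective tissue, were lowest in run 3. The brighter Fmod probe read 7.60, 7.71, 7.67 and 7.62 there, 7.97 and 8.44 in run 4, and 8.56 to 9.29 on the other 10 arrays. Prelp read 10.25, 10.42, 10.01 and 10.34 in run 3, 10.77 and 11.00 in run 1, and 11.17 to 11.79 on the other 10 arrays. Neither gene had run 2 apart from the rest. The range of run means was 1.50 for Fmod (2.84-fold, adjusted p = 1.17e-06) and 1.27 for Prelp (2.40-fold, adjusted p = 7.13e-06). The dimmer Fmod probe had a range of 0.99 (adjusted p = 0.000118).

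Keratocan and epiphycan were near the bottom of the scale in all cultures. Kera read 5.82 to 6.58, and the Epyc probes 5.89 to 6.17 and 5.88 to 6.36. Their run means differed by at most 0.27. Detection p-values were not used here, so these values set no more than an upper bound on the signal of both genes.

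**Figure D2:**
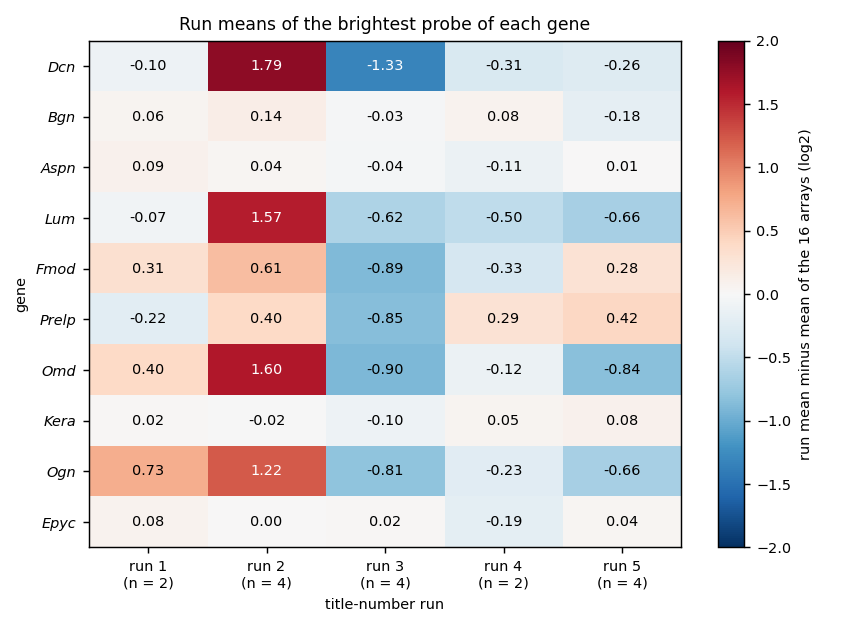
Mean of each run minus the mean of all 16 arrays (log2 scale, colour and printed value) for the brightest probe of each gene, rows, in the 5 runs, columns. Dcn, Omd, Lum and Ogn reach 1.79, 1.60, 1.57 and 1.22 in run 2, and Dcn falls to -1.33 in run 3, while the rows of Aspn, Kera and Epyc lie between -0.19 and 0.09.

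All 4 arrays of run 2 were above the 12 others at 7 of the 15 probes (both of Dcn, the 3 of Ogn, and those of Lum and Omd), against 1.32% of all probes and 2.26% of those above the median probe. By brightest probe these were 4 of the 10 genes. The dimmer Ogn probes passed narrowly, with KO15 at 7.378 against WT5 at 7.376, and KO16 at 8.70 against WT44 at 8.68. All 4 arrays of run 3 were below the 12 others at 3 of the 15 (Dcn, Fmod and Prelp, each at its brightest probe), against 1.04% and 1.98%. These patterns were picked out after the values had been seen and are given as counts only.

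Markers of bone cells and other cell types moved with the runs too. Of 8 measured osteoblast markers, 7 differed between runs, against 22.3% of all genes and 37.7% of the probes above the median probe, and their summed linear intensity was 21834 to 38973 on the arrays of run 2, 13656 to 19953 in run 1 and 8063 to 11241 in runs 3, 4 and 5. The adipocyte markers (7 of 9) summed to 16308 to 32764 in run 2 and 11179 to 17197 elsewhere, with Plin1, Cidec and Fabp4 below the median probe. Macrophage markers (7 of 10) summed to 33942 to 57330 in run 2 and 48444 to 63166 elsewhere. The adipocyte sum of 32764 came from a knock-out array. No wild type array exceeded 16446, so WT13 and WT14 lay within the adipocyte range of run 1 (16178 to 17197). The lowest macrophage sum (33942) and the highest osteoblast sum (38973) were wild type. Knock-out arrays went no lower than 48444 and no higher than 26501. The part of these markers in the proteoglycan differences was not tested, and in RNA of whole cultures fewer cells of a type and less RNA per cell cannot be told apart.

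As with the adipocyte and macrophage markers, the sums of run 2 overlapped those of other runs for the remaining cell types. Chondrocyte markers (3 of 7, with Acan, Matn1, Matn3 and Cnmd below the median probe) summed to 2003 to 2957 in run 2 and 815 to 2795 elsewhere. Tendon and ligament markers (2 of 6), a list that holds Kera and Fmod themselves, summed to 1054 to 1219 in run 2 and 781 to 1180 elsewhere, with Tnmd, Thbs4 and Kera below the median probe. Endothelial markers (4 of 5, with Cdh5 below the median probe) summed to 829 to 1170 in run 2 and 1103 to 5394 elsewhere. Smooth muscle and pericyte markers (3 of 6, with Myh11, Cnn1 and Rgs5 below it) and skeletal muscle markers (1 of 4, with Ckm and Mylpf below it) summed to 34484 to 36635 and 363 to 456 in run 2, within the range of the other arrays.

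Likeness over the 16 arrays was measured as the mean absolute difference between probes centred on their own means, so that 0 would be identical variation. Ogn and Omd were each other's closest match among all named genes, at log2 0.25, where their own mean absolute deviations were 0.84 and 0.90. Mme, which encodes neprilysin, was within 0.29 of Ogn, Omd and Lum alike. Dcn was closest to Bglap, the osteocalcin gene (0.24), to the chemokine gene Cxcl12 (0.24) and to Kng2 (0.29), against its own deviation of 0.90. Lum came closest to Sema5a (0.27) and Srpx (0.27), Fmod to the Wnt antagonist gene Sfrp1 (0.19), Pik3ip1 (0.20) and Olfml3 (0.21), and Prelp to the lysosomal phospholipase gene Pla2g15 (0.16), Ccdc80 (0.17) and Pltp (0.18). The other close matches were Smarca1 (0.26) for Ogn and Capn6 (0.29) for Omd, and for Bgn, which itself deviated by only 0.13, Slc4a2 (0.0595), Ctnnb1 (0.0617) and Rab2a (0.0676). Among the members, Lum and Omd followed at 0.31, Fmod and Prelp at 0.35, and Dcn and Lum at 0.40, whereas Dcn and Bgn were 0.86 apart. All of these distances share the same arrays and runs.

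Between genotypes no proteoglycan probe passed. Without a block 0 of the 15 probes had a limma adjusted p under 0.05, as 0% of all probes did, and 0 of 15 were at an unadjusted p under 0.05, against 2.58% of all probes higher and 2.16% lower in the knock-out. With the runs as a block again 0 of 15 passed, against 0.171% of all probes called higher and 0.0467% called lower. At an unadjusted p under 0.05 with the block, Prelp was higher (1 of 15, against 5.81% of all probes and 9.53% of those above the median probe), and Lum and the dimmer Fmod probe were lower (2 of 15, against 5.37% and 8.9%). At the brightest probe 8 of the 10 genes were lower and 2 higher, where 8221 of all 16593 genes were lower. The median difference was log2 -0.07, and that of all genes was 0.00071. Among the lower genes, Aspn, Kera and Epyc lay near the bottom of the scale.

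Lum had the smallest p of the members with the block, whereas without it Epyc did (limma adjusted p = 0.932). In wild type Lum had 6.32, 6.51 and 8.91 as its lowest, median and highest values, and in the knock-out 6.24, 6.42 and 8.39, so the genotypes overlapped. Its mean was 7.11 ± 1.06 in wild type and 6.88 ± 0.93 in knock-out arrays (SD, n = 8 each), which made the knock-out 0.856-fold. The difference of -0.23 had a 95% interval of -1.18 to 0.73 without a block (limma adjusted p = 0.976) and of -0.38 to -0.07 with it (SE 0.071, unadjusted p = 0.00618, adjusted p = 0.226). By run it was -0.64, -0.38, -0.13, -0.15 and 0.01 in runs 1 to 5. Lum was therefore lower in 4 of 5 runs. The value of run 1 sets WT5 alone, at 7.25, against KO7 at the array median of 6.60.

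Prelp went the other way. Its lowest, median and highest values were 10.25, 11.18 and 11.55 in wild type and 10.01, 11.55 and 11.79 in the knock-out, again overlapping. The difference was 0.22 (1.17-fold, interval -0.34 to 0.79 without a block and 0.04 to 0.41 with it, SE 0.087 with the block, limma unadjusted p = 0.0212, adjusted p = 0.332, or 0.950 without a block), and it was positive in 4 of 5 runs, with 0.49 in run 2 and -0.16 in run 3. The means were 10.99 ± 0.46 and 11.22 ± 0.70 (SD, n = 8 each).

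The dimmer Fmod probe, lower in 4 of 5 runs, had a difference of -0.24 (SE 0.092, limma adjusted p = 0.312 with the block). The brighter one differed by only -0.10 (SE 0.082, adjusted p = 0.708), with -0.59 in run 1 and 0.47 in run 4, so the probes disagree in size. Ogn and Omd had differences of -0.28 (SE 0.19, adjusted p = 0.643) and -0.24 (SE 0.13, adjusted p = 0.541) with the block. Both turned sign between runs: Ogn by -0.55 in run 2, -0.90 in run 5 and 0.35 in run 4, and Omd by -0.50, -0.73 and 0.28. Dcn differed by -0.02, with an interval of -1.18 to 1.14 without the block and -0.17 to 0.12 with it. Bgn differed by 0.05, with intervals of -0.12 to 0.22 and -0.08 to 0.18. Aspn (-0.03), Kera (-0.06) and Epyc (-0.07) lay near the bottom of the scale.

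Adipocyte and macrophage markers leaned towards the knock-out. All 9 measured adipocyte genes were higher there, and 2 passed with the block, named here after their values were seen: Adipoq, the adiponectin gene, rose by log2 1.19 (SE 0.13, limma adjusted p = 0.00105) and the glycerol channel gene Aqp7 by 0.70 (SE 0.13, adjusted p = 0.0397). The summed adipocyte intensity was 11179 to 16446 in wild type and 12170 to 32764 in knock-out arrays. Of the macrophage markers 9 of 10 were higher and 0 passed, with sums of 33942 to 63166 and 48444 to 63068. Of the osteoblast markers 6 of 8 were lower and 0 passed, with sums of 8524 to 38973 and 8063 to 26501. Among all 16593 genes 8372 were higher and 8221 lower in the knock-out. With the block 35 of them were called higher and 8 lower. The part of these markers in the proteoglycan differences was not tested.

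**Figure D3:**
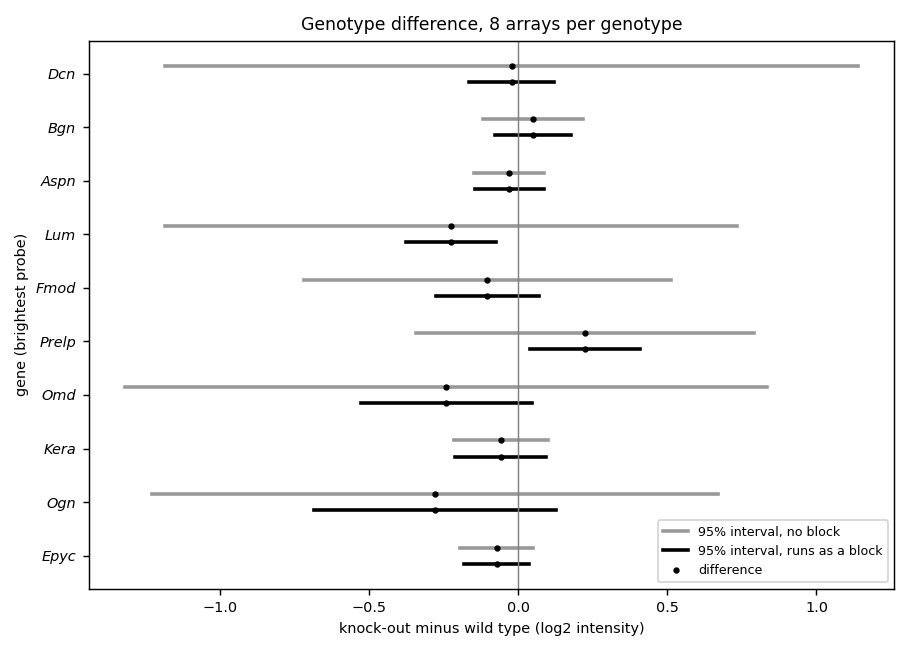
Difference between knock-out and wild type arrays in log2 intensity (horizontal axis) at the brightest probe of each gene, with 8 arrays per genotype. Grey lines are 95% intervals of the limma fit without a block and black lines those with the runs as a block; only the black lines of Lum (-0.38 to -0.07) and Prelp (0.04 to 0.41) stay clear of 0, and neither gene passed after adjustment over all probes.

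In run 2, with 2 arrays per genotype, the genotypes were often without overlap, over all probes as well as at the proteoglycan probes. WT13 and WT14 were both above KO15 and KO16 at 9 of the 15 probes (both of Dcn and Fmod, 2 of Ogn, and those of Lum, Omd and Kera), against 23.8% of all probes and 29.9% of those above the median probe. They were both below at 1 of 15, Prelp, against 20.7% and 24.3%. By brightest probe 6 of the 10 genes were above and 1 below, and Kera lay near the bottom of the scale. Run 3 had 2 of 15 probes above (Lum and the dimmer Fmod probe, against 16.4% of all probes) and 1 below (Omd, against 16.2%). Run 5 had 2 above, for Omd and the brighter Epyc probe (15.5%), and 2 below, for Prelp and the dimmer Epyc probe (17.6%), so the probes of Epyc went opposite ways. Whether the genotype difference itself varied between runs was asked with a limma F test of the interaction, added after the values had been seen: 0 of the 15 probes passed, against 0.494% of all probes, and Fmod came closest (adjusted p = 0.199 at its brighter probe). At an unadjusted p under 0.05 the interaction held 3 of 15 probes, against 7.62%. The wild type arrays of run 2 are also those with low Eif2s3y, so in that run genotype and this property cannot be told apart. WT13 and WT14 also enter the genotype differences over all arrays, with and without the block, which therefore share this limit.

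**Figure D4:**
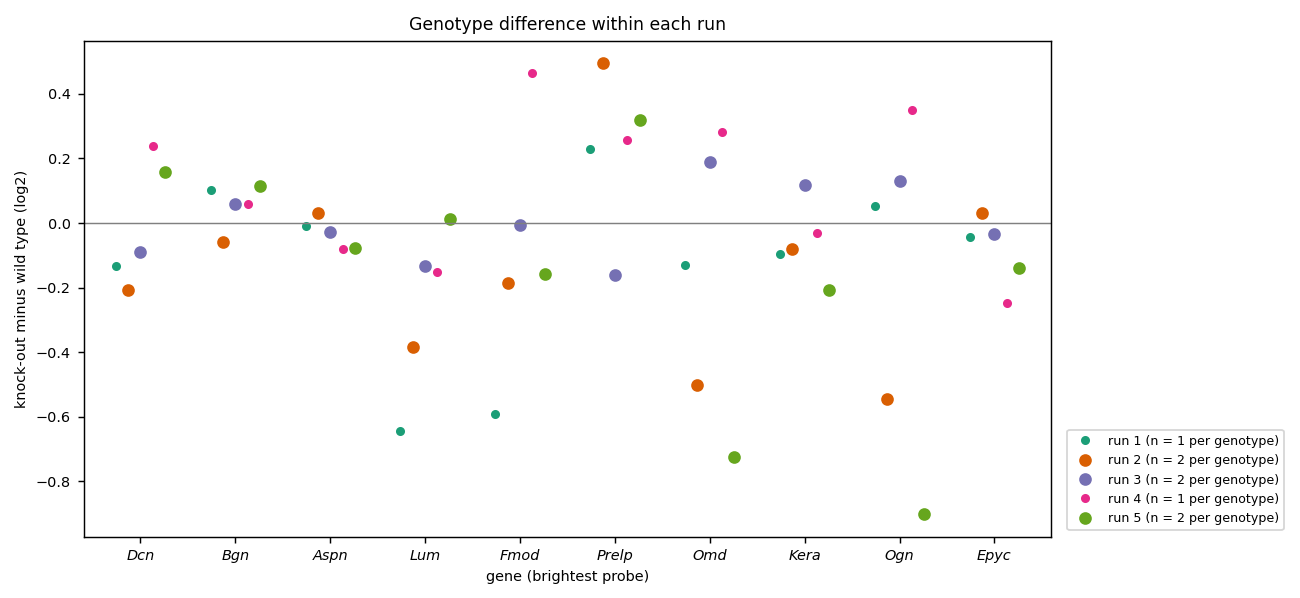
Knock-out minus wild type difference in log2 intensity (vertical axis) within each run for the brightest probe of each gene, with 1 array per genotype in runs 1 and 4 (small points) and 2 in the others (large points). No gene keeps the same sign in all 5 runs: Ogn spans -0.90 to 0.35 and Omd -0.73 to 0.28.

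The related genes outside the 10 were mostly dim. Of 7 listed (Chad, Ecm2, Nyx, Optc, Podn, Podnl1 and Tsku) 6 were measured, and only Podnl1, a podocan-like proteoglycan gene, was above the median probe. Podnl1 had a mean of 8.59 ± 0.19 in wild type and 8.34 ± 0.13 in knock-out arrays (SD, n = 8 each). Its difference of -0.25 (SE 0.074) was negative in 5 of 5 runs but did not pass (limma adjusted p = 0.192 with the block), nor did its other probe at -0.22 (adjusted p = 0.177). The differences of the 5 dim genes lay between -0.11 (Chad) and 0.09 (Optc), none passing, and 0 of the 6 genes differed between runs.

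Enzymes that build the sugar chains of these proteins differed between runs at a share near that of all genes (22.3%). The share was 37.7% for the probes above the median probe. Among 20 measured genes of chondroitin and dermatan sulfate synthesis, 15 of them above the median probe, 4 differed between runs. Between genotypes 0 passed, with 10 higher and 10 lower. Csgalnact1, which starts chondroitin chains, had the smallest genotype p of the list (difference 0.24, SE 0.059, limma adjusted p = 0.119 with the block), followed by the xylosyltransferase gene Xylt2 (0.18, adjusted p = 0.208), B4galt7 (0.11, 0.400) and the xylose kinase gene Fam20b (-0.22, 0.432). Of 10 keratan sulfate genes, 3 differed between runs and 0 between genotypes, with Chst1, a keratan sulfate sulfotransferase gene, at 0.14 (adjusted p = 0.385), B3gnt2 at 0.10 (0.424), B3gnt7 at 0.07 (0.720) and Chst2 at -0.06 (0.842). Among 10 large proteoglycan and link protein genes 2 differed between runs and 0 between genotypes. There Hapln2 stood at 0.09 (adjusted p = 0.448), Hapln1 at -0.09 (0.560), Ncan at -0.08 (0.614) and Hapln4 at -0.07 (0.641).

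Of 17 measured fibrillar collagens and fibril partners, 14 of them above the median probe, 10 differed between runs, against 22.3% of all genes and 37.7% of the probes above the median probe, and 0 passed between genotypes, with the collagen gene Col11a1 at -0.28 (SE 0.073, limma adjusted p = 0.136 with the block), Comp at 0.30 (0.188), Col5a2 at -0.08 (0.793) and Col14a1 at -0.05 (0.820). In the processing and crosslinking list 10 of 17 differed between runs. In the knock-out 13 of 17 were lower, with a median of -0.07, as were 8221 of all 16593 genes, but 0 passed. The lysyl oxidase gene Loxl2 was at -0.25 (SE 0.055, adjusted p = 0.0907) and lower in 5 of 5 runs, as were the lysyl hydroxylase gene Plod2 (-0.19, adjusted p = 0.323) and the prolyl hydroxylase gene P4ha2 (-0.23, 0.401), and Pcolce2 was at -0.23 (0.411).

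Of 12 measured TGF-beta ligands, receptors and latency proteins, 11 of them above the median probe, 8 differed between runs, against the same shares of 22.3% and 37.7%, and 1 passed between genotypes with the block. Tgfbr2, the type II receptor of TGF-beta, had a mean of 11.09 ± 0.31 in wild type and 11.35 ± 0.38 in knock-out arrays (SD, n = 8 each). It rose 1.20-fold (log2 0.26, SE 0.048, limma adjusted p = 0.0359) and was higher in 5 of 5 runs. Without a block its adjusted p was 0.932. The call was also lost without WT13, WT14, KO15, KO16, WT21, WT22, KO24, WT42, KO46 or KO47, taken singly, with an adjusted p of up to 0.112. The ligand gene Tgfb2 stood at -0.28 (adjusted p = 0.341), the latency protein gene Ltbp4 at -0.17 (0.286) and Bmp4 at -0.14 (0.470).

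Proteinases that cleave small proteoglycans differed between runs in 8 of 9 cases, against 22.3% of all genes and 37.7% of the probes above the median probe. In the knock-out 8 of 9 were lower, with a median of -0.19, as were 8221 of all 16593 genes, and 0 of the 9 passed at their brightest probe. Mmp13 was at -0.48 (SE 0.11, limma adjusted p = 0.0913 with the block), cathepsin K (Ctsk) at -0.20 (0.317), Mmp2 at -0.23 (0.342) and Htra1 at -0.18 (0.471). A dimmer Mmp13 probe fell by 0.59 on the log2 scale (adjusted p = 0.0251), a call lost without WT13, WT14, KO15, KO16, WT21 or WT42 (adjusted p up to 0.0805), and a further one was at 0.04 (0.832). Among 11 receptors that small proteoglycans are known to bind, 9 of them above the median probe, 2 differed between runs, against the same 22.3% and 37.7%. Between genotypes 0 passed, led by Tlr2 at 0.27 (adjusted p = 0.219), Lrp1 at 0.24 (0.440), Tlr4 at 0.16 (0.454) and Met at -0.09 (0.561).

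**Figure D5:**
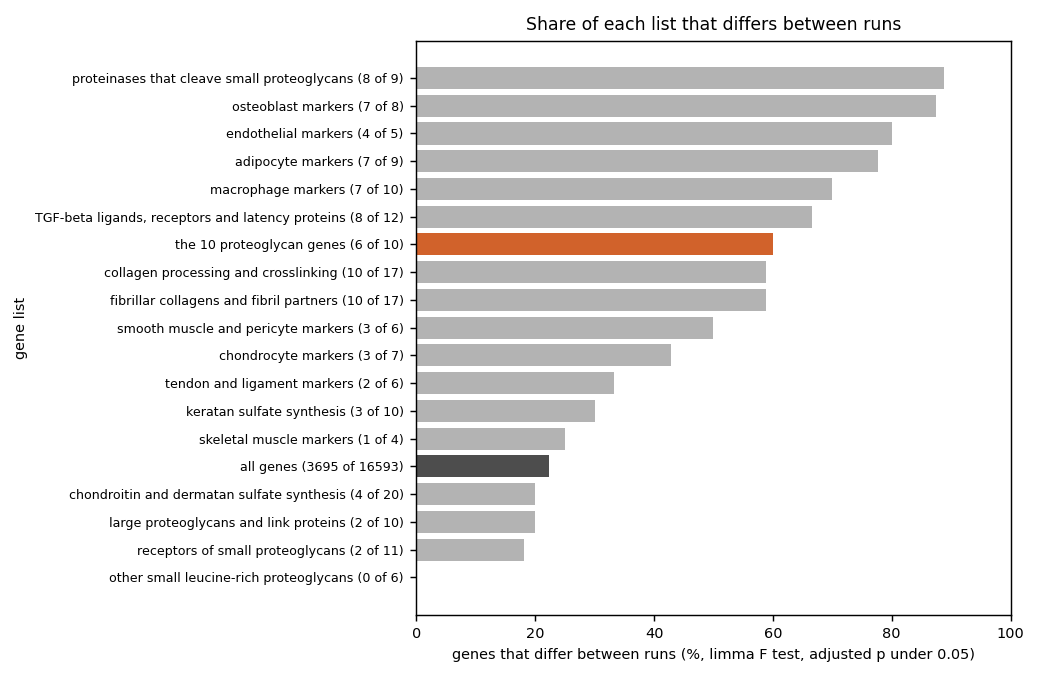
Share of the measured genes of each list (horizontal axis, percent) whose brightest probe differed between the 5 runs in the limma F test, with the counts beside each name. The 10 proteoglycan genes (6 of 10) are in orange and all genes (3695 of 16593, 22.3%) in dark grey; proteinases, TGF-beta genes and the osteoblast, endothelial, adipocyte and macrophage markers have higher shares than the proteoglycans, both collagen lists lie just below them, and chain-building enzymes lie near all genes.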

How the data were processed

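Total RNA, isolated with TRIzol and labelled with biotin per the labels' protocols, had been hybridized to an Illumina mouse BeadChip. The deposited values are probe intensities on a linear scale, which the authors quantile normalized, as the values show: the highest was 37892 on all 16 arrays and the lowest between 53.1 and 54.2. Background was thus not removed down to 0. Software and filters: not given in the sources used here. Intensities were floored at 16, log2 transformed and not normalized again. Probes were named from the platform annotation, updated by Entrez identifier to the GRCm38.p6 RefSeq table (23962 of 23978 named probes matched, 1719 unnamed), and the brightest probe stands for a gene in counts.

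All 25697 probes were fitted with limma 3.58.1 in R 4.3.3 (two-sided, Benjamini-Hochberg over all probes): genotype without a covariate, genotype with the 5 runs as a fixed block, and an F test between runs. A new run starts after a gap over 4 in the title numbers. The principal comparison has no block, since the labels state none. The code was checked on simulated data of the same shape. Differences are identical in both genotype fits because each run holds both genotypes equally. Arrays are named WT or KO with their title number. Between arrays of the same run and genotype the SD of log2 differences over the brighter probes was 0.139 to 0.324 (6 pairs), against 0.226 to 0.530 between runs (100 pairs), and no 2 arrays were identical. No label says that arrays come from separate animals, so every p-value reflects array-to-array spread alone, which may be technical; the number of arrays limits the precision. Members, gene lists and tests were chosen with earlier results of these data known. Named are all 10 members, all measured genes of the related list, Hdac3, up to 4 genes per pathway list with the smallest p in the block fit, and the 3 genes most like each brighter member. Alternatives were another log offset, a filter on dim probes, cyclic loess, eBayes with trend and robust settings, a random block, means per run and genotype, the mean of a gene's probes, and leaving out each array or run.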

Additional observations from a re-analysis of the deposited data

How the results depend on the processing

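By title number, no paired analysis was possible because wild type and knock-out arrays share no number. Pairing was by run instead, with the runs as a block or with the means of each run and genotype as 5 pairs, where Lum was at -0.26 (adjusted p = 0.384) and Prelp at 0.23 (0.413). The count of genotype calls without a block was 0 in every alternative run, with 584 to 2048 probes at an unadjusted p under 0.05. The 56 calls with the block became 21 with log2 of the intensity plus 50, 5, 15, 149 and 20 without runs 2, 3, 4 and 5, 0 with the 5 pairs (2563 unadjusted), and 12 to 149 without single arrays. Probes differing between runs numbered 5164, and 3307 without run 2 and 2988 without run 3, where fewer arrays were fitted, and 4118 to 5733 without single arrays. Of the proteoglycan genes 6 differed between runs in every alternative run, apart from 7 without WT44. No proteoglycan gene passed between genotypes in any alternative, so the sign changes concern differences that were never called. Dcn turned to 0.040 without run 2 and 0.00052 without run 3 in both fits. Without single arrays and without a block, the differences ran from -0.27 to 0.26 for Dcn, -0.0064 to 0.084 for Bgn, -0.25 to 0.021 for Fmod, -0.11 to 0.0021 for Kera, -0.44 to 0.032 for Lum and -0.46 to 0.012 for Omd. With the block they ran from -0.072 to 0.0076 for Dcn, -0.053 to 0.0017 for Aspn and -0.10 to 0.0036 for Kera, and Lum kept its sign at -0.26 to -0.17. The call of Tgfbr2 was also lost with trend and robust settings (adjusted p = 0.113), without run 2 (0.607), run 3 (0.0975) or run 5 (0.1005), and with the 5 pairs (0.2995), and that of the dimmer Mmp13 probe with the offset of 50 (0.0596), without run 2 (0.366) or run 5 (0.0721) and with the 5 pairs (0.299). The causes were not tested. Signal near the bottom of the scale limits what can be said of Aspn, Kera, Epyc and, outside run 2 and WT5, Lum.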
